A study of Mus musculus with 10 samples.

Results

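The receptors described here hold blood stem and progenitor cells in the bone marrow, guide them back to it or, in the case of S1PR1, draw cells out. The set was chosen by name as the rows of the count table with the symbols Cxcr4, S1pr1, Itga4, Itga6, Itgal, Itgb1, Itgb2, Selplg and Cd44, that is 9 of the 25178 genes in the table, and all 9 passed the filter on low counts. Lineage-depleted marrow of 5 female and 5 male C57/BL6 mice, an inbred strain, was sequenced in bulk without injury or treatment, each mouse giving its own library. A single hindlimb was used per mouse, and magnetic beads had taken out cells bearing mature lineage markers. Neither the age of the mice nor the antibody panel is stated in the labels. The comparison addresses whether blood formation differs between the sexes at steady state.

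CXCR4 is the receptor for CXCL12, a chemokine that marrow stromal cells release, and its signal keeps stem and progenitor cells in the niche. S1PR1 senses sphingosine 1-phosphate, a lipid that is abundant in blood and lymph, and draws cells out of tissues. Integrins are pairs of an alpha and a beta chain that anchor cells to the niche and to vessel walls. VLA-4 pairs the Itga4 and Itgb1 products and binds VCAM1 and fibronectin, VLA-6 pairs the Itga6 and Itgb1 products and binds laminin, and LFA-1 pairs the Itgal and Itgb2 products and binds ICAM proteins. PSGL-1, the product of Selplg, carries the sugars that selectins on endothelium bind during rolling, and CD44 binds hyaluronan and, in some glycosylated forms, E-selectin.

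Library totals lay between 20754101 and 24759687 counts. Of 15 stem and progenitor marker genes all 15 were tested, 7 with positive and 8 with negative log2 fold changes of females over males (median -0.11), and their summed level was 900.3 to 1155 CPM (counts scaled to library size) in females and 793 to 1102 CPM in males. Kit, the stem cell factor receptor, averaged 279.9 ± 43.3 CPM in females, against 249 ± 59.4 CPM in males, and Flt3, a receptor of lymphoid-primed progenitors, 33.8 ± 6.98 CPM in females, against 41.8 ± 6.54 CPM in males (SD, n = 5 each). The mature neutrophil genes were the marker list that varied most between mice, with a summed level of 312 to 1095 CPM in females and 252 to 9787 CPM in males. Summed erythroid markers were at 6875 to 11702 CPM in females and 13688 to 50329 CPM in males, with no overlap. The highest sums were those of male replicates 1 and 2, at 50329 and 30796 CPM. Of the 11 erythroid markers tested, 3 had positive and 8 negative log2 fold changes (median -0.73). None was called by the edgeR test described below (smallest adjusted p = 0.193). The globin genes lay between -2.25 and -1.86, whereas Car2, Klf1, Tfrc and Epor lay between -0.07 and 0.11. The part of the erythroid markers in the receptor values was not tested. The first principal component set male replicates 1 and 2 apart from the remaining 8 libraries. Deviations of single genes from the mean of the 10 libraries also followed exon length, with a rank correlation across genes between 0.04 and 0.33 in the females, and of -0.15, -0.51 and -0.30 in male replicates 1, 2 and 3 and 0.37 and 0.29 in male replicates 4 and 5. In bulk samples fewer cells of a type and less RNA per cell cannot be told apart.

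None of the 9 receptor genes passed edgeR's quasi-likelihood test between females and males, that is 0 of 9 at a Benjamini-Hochberg adjusted p under 0.05, where 0.0545% of the 14674 genes tested were called (0.0204% higher and 0.0341% lower in females). DESeq2, which called 0.361% of all genes, and limma-voom, which called 0.0545%, also called 0 of 9. At an unadjusted p under 0.05 the edgeR test gave 3 of 9, namely Itga6, Selplg and Cxcr4, where 9.17% of all genes tested had such a p (3.76% higher and 5.41% lower in females). That count was 1, Itga6 alone, without female replicate 1, 2 or 3 or without male replicate 1. It was 2, Itga6 and Selplg, in limma-voom. Without female replicates 1, 2 and 3 in turn, 1117 of 14880, 790 of 14834 and 854 of 14875 genes tested had such a p. The number was 947 of 14805 without male replicate 1 and 1235 of 14674 in limma-voom. The log2 fold change of females over males was above 0 for 4 receptor genes and below 0 for 5, with a median of -0.10 against -0.01 over all genes tested. The median size of the log2 fold change was 0.23 for the receptor genes and 0.18 for all genes tested. For 8 of the 9 genes the 95% interval lay within 1 log2 unit of 0 on either side, the exception being Itgb2. In 0 of 9 genes did all mice of one sex lie above all of the other, where 1.93% of all genes tested were separated in this way (1.06% with females above and 0.865% with females below). With DESeq2 size factors or upper quartile scaling all 5 females lay below all 5 males for Cxcr4. The share of all genes separated under those scalings is not given here.

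**Figure D1:**
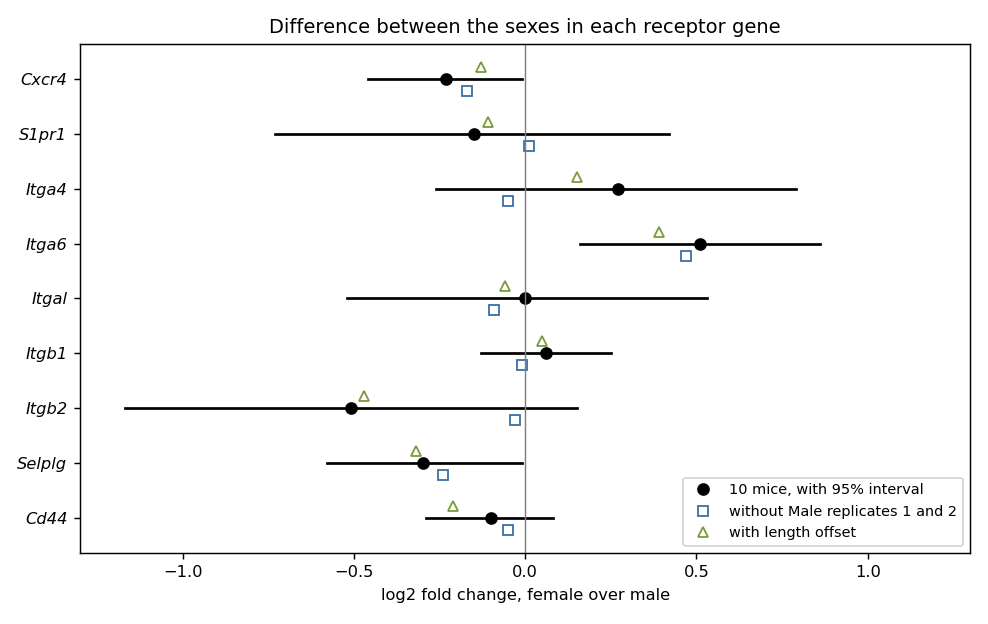
Log2 fold change of females over males for the 9 receptor genes, where black points with lines are the edgeR estimate from 10 mice with its 95% interval, open squares the estimate without male replicates 1 and 2, and open triangles the estimate with a length offset. Itga6 lies farthest to the right at 0.51 and Itgb2 farthest to the left at -0.51, and the Itgb2 estimate moves to -0.03 without the 2 males.

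Levels were compared between genes only per exon length, as TPM (here a count per exon length, scaled to the library). The length of a gene was that of all its annotated exons merged, not of the transcripts present. Where it exceeds those transcripts the TPM is too low, so the order depends on it. It was 13978 bases for Itga4, with 5 annotated transcripts, and 9025 bases for Itga6, with 8. Itgb1, the beta chain of VLA-4 and VLA-6, was the most abundant receptor transcript, at 179 ± 8.55 TPM in females and 151 ± 35.0 TPM in males (SD, n = 5 each). It was higher than Selplg, the next in order, in 10 of 10 mice. Selplg (97.9 ± 18.2 TPM, SD over 10 mice) and Cxcr4 (90.0 ± 12.2 TPM) followed, and their means differed by less than their spread. Itgb2 (56.9 ± 23.9 TPM) and Cd44 (52.2 ± 6.11 TPM) were likewise not separated beyond their spread. The alpha chains were lower on this measure, with Itga4 at 36.3 ± 12.3 TPM, Itgal at 27.2 ± 8.32 TPM and Itga6 at 22.2 ± 7.56 TPM over 10 mice. The ranges of neighbours in this order overlapped down to Itga6. S1pr1 came last at 3.43 ± 1.31 TPM in females and 3.26 ± 0.855 TPM in males (SD, n = 5 each), below Itga6 in 10 of 10 mice and with no overlap of their ranges.

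**Figure D2:**
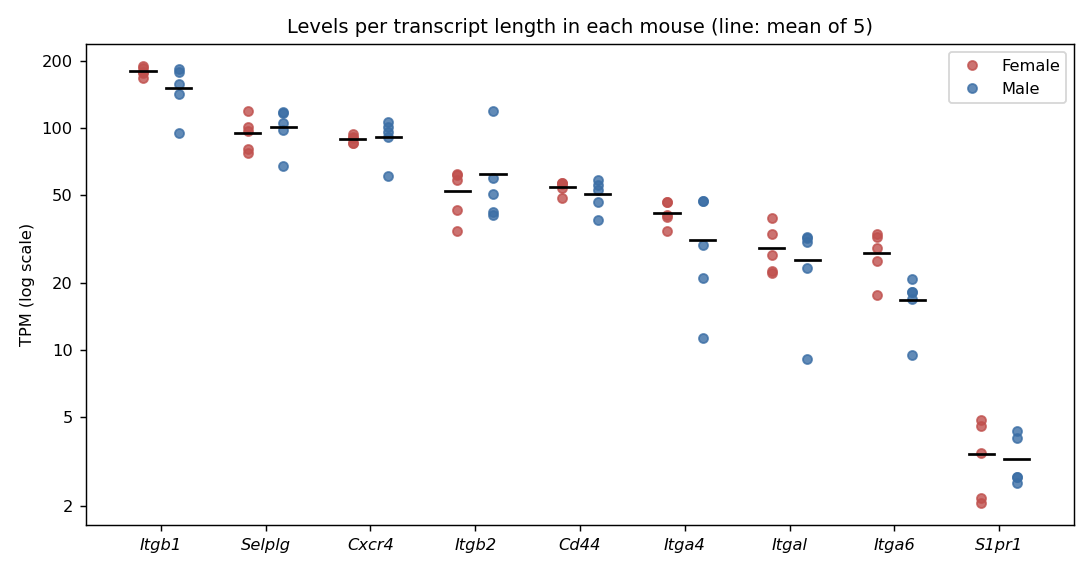
Level per merged exon length (TPM, log scale) of the 9 receptor genes in each mouse, females left of males within each gene and ordered by the mean of 10 mice, with lines at the mean of 5. Itgb1 is the highest gene in every mouse, up to 189.6 TPM, and S1pr1 lowest at 2.06 to 4.87 TPM, and the other 7 genes lie between them.

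Cxcr4 (chromosome 1, 128588199 to 128592293, minus strand, GRCm38) was nearly constant among the females and more varied among the males. The 5 females had 65.9, 64.4, 61.7, 65.7 and 65.6 CPM, and the 5 males had 96.0, 65.3, 71.5, 71.5 and 74.9 CPM. Of the males 4 lay above every female, and male replicate 2, at 65.3 CPM, lay within the female range. Its log2 fold change was -0.23 (SE 0.10, 95% interval -0.46 to -0.01, edgeR adjusted p = 0.506), -0.14 without male replicate 1 and -0.13 with an offset for exon length, under which male replicate 2, at 52.2 CPM, became the lowest mouse. The coefficient of variation was 2.73% in females, and counting error alone gives 2.59% at their 1358 to 1677 counts. In males it was 15.6%. Of the 8924 genes with a mean of at least 10 CPM, 3.25% had a female coefficient of variation as small as that of Cxcr4. A wider spread in males was common, since the coefficient of variation was larger in males for 86.8% of these genes, with medians of 7.82% in females and 17.2% in males.

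The 250 bases before the RefSeq start of Cxcr4 (GRCm38.p6, chr1:128592300-128592549, minus strand) are shown for the receptor gene with the narrowest values among females. Capitals mark matches to the motifs searched on both strands.
Cxcr4: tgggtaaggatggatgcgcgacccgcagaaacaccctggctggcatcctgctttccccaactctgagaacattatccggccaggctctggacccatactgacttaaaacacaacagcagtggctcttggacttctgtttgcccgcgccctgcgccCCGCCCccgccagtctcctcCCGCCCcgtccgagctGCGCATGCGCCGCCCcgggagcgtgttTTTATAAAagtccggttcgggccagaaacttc
These are 3 GC boxes (GGGCGG, in 32.7% of 32851 RefSeq promoters of this length), an NRF1 motif (in 3.74%) that shares 1 base with the GC box nearest the start, and overlapping TATA box letters (TATAAA, in 12.4%) on both strands. The full estrogen response element (in 0.0639% of promoters) and the element shared by androgen and progesterone receptors (in 0.00913%) were not in this window, nor were ACGTG (in 16.6%), CCAAT (in 33.8%), AGATAA (in 9.99%) or CCGGAAG (in 6.91%). Both hormone receptor elements were also not in the same window of Itga4, Itgb1 and Cd44, the other members with a RefSeq promoter in the table used.

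S1pr1 (chromosome 3, 115710433 to 115715072, minus strand), the exit receptor, had the fewest counts of the set, 55 to 138 per female and 84 to 146 per male. Females had 2.67, 2.64, 4.19, 5.94 and 5.40 CPM, and males had 6.13, 4.62, 3.59, 3.41 and 5.44 CPM. The sexes overlapped over most of their range, and the lowest and highest mice differed 2.32-fold. The log2 fold change was -0.15 (SE 0.26, 95% interval -0.73 to 0.42, edgeR adjusted p = 0.773), a fold between 0.604 and 1.34, and it was -0.03 without male replicate 1.

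**Figure D3:**
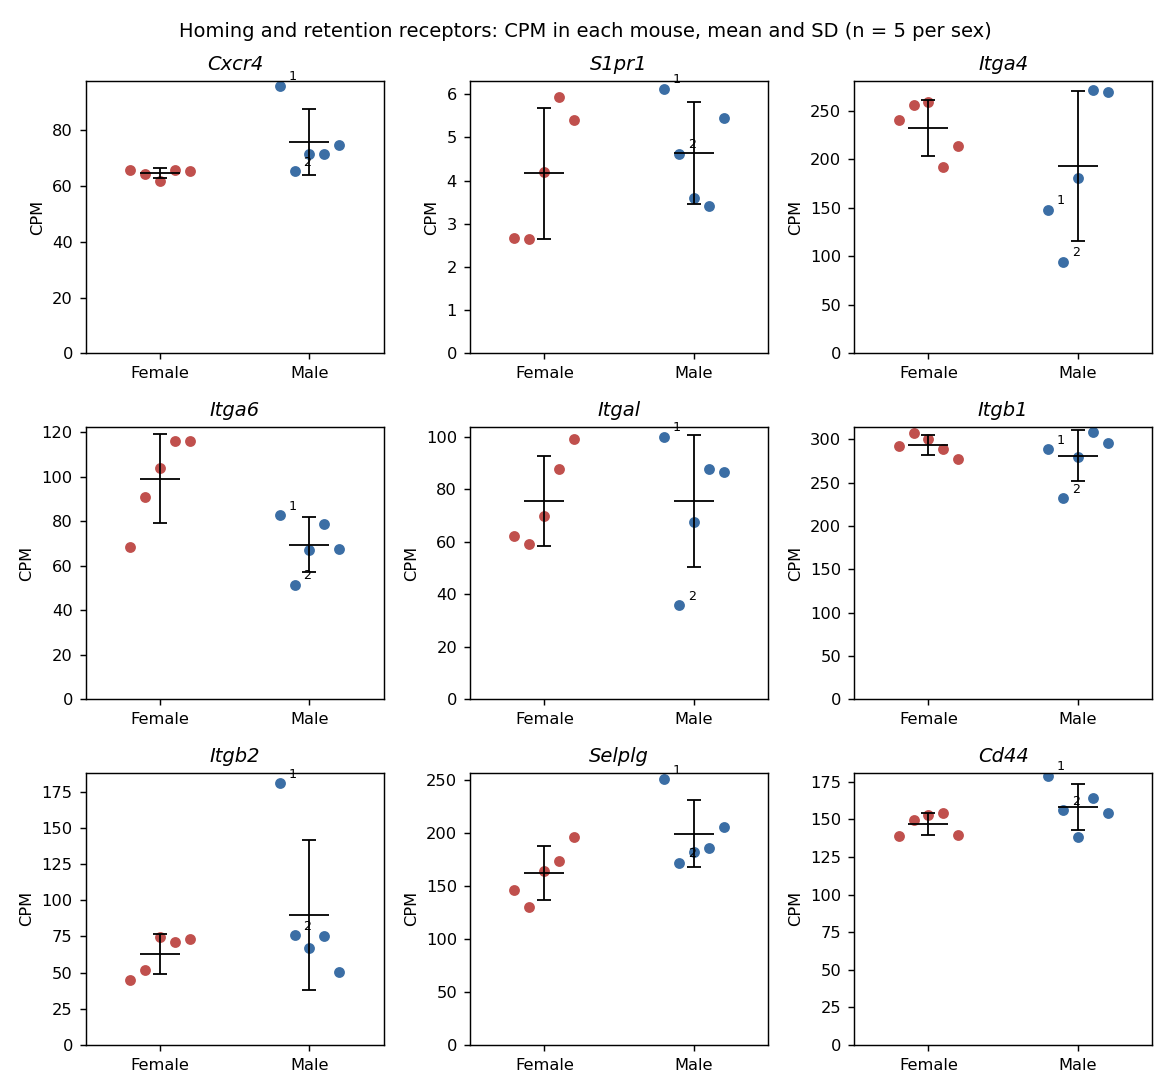
CPM of the 9 receptor genes in each mouse, females left and males right, with the mean and SD of 5 mice in black and male replicates 1 and 2 numbered. Female values of Cxcr4 lie between 61.7 and 65.9 CPM, and male replicate 1 is the highest mouse for Cxcr4, S1pr1, Itgal, Itgb2, Selplg and Cd44.

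Among the VLA chains, Itga4 varied most between males. Itga4 (chromosome 2, 79255426 to 79333123, plus strand) was at 241, 256, 259, 192 and 214 CPM in females and at 148, 94.7, 181, 272 and 269.7 CPM in males. Male replicates 1, 2 and 3 lay below every female and male replicates 4 and 5 above every female. For Itga4 the log2 fold change was 0.27 (SE 0.24, 95% interval -0.26 to 0.79, edgeR adjusted p = 0.594). Its 13978 exon bases are exceeded by 2.77% of the genes tested, and the 3 males with the lowest values are the 3 libraries whose values fell with exon length. With an offset for length, males ran from 133 to 250.2 CPM and the highest mouse exceeded the lowest 1.88-fold, against 2.88-fold without it. Without male replicates 1 and 2 the log2 fold change was -0.05. Itga4 shares 1124 exon bases with Cerkl on the opposite strand, and no source used here states whether counting used strand. Cerkl had 410 counts over the 10 libraries.

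The 250 bases before the RefSeq start of Itga4 (GRCm38.p6, chr2:79255176-79255425, plus strand) are set against those of Cxcr4, as the receptor gene with 3 males below and 2 above all females. The capitals mark the only match to the motifs searched, 1 GC box.
Itga4: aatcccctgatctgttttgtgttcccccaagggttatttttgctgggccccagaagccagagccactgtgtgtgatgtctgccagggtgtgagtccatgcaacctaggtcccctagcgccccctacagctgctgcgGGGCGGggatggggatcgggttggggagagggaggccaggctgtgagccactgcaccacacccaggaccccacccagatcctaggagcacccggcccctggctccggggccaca
Its GC content was 64.0%, against 61.2% for Cxcr4 and a median of 52.4% over all promoters.

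Itga6, the laminin-binding alpha chain (chromosome 2, 71745616 to 71858416, plus strand), was the receptor gene with the smallest p. Females had 68.4, 90.8, 104, 116 and 116 CPM, and males had 82.7, 51.4, 66.9, 78.9 and 67.6 CPM. The females other than replicate 1 lay above all 5 males. Its log2 fold change was 0.51, a fold of 1.42 (SE 0.16, 95% interval 0.16 to 0.86, unadjusted p = 0.00841 and edgeR adjusted p = 0.506). The value stayed between 0.39 and 0.62 over all 19 alternatives, 0.39 with the length offset and 0.47 without male replicates 1 and 2, and was called in 0 of them (adjusted p between 0.213 and 0.703). Megakaryocytes and platelets also carry this chain. All 11 megakaryocyte and platelet markers tested had positive log2 fold changes, with a summed level of 1828 to 2413 CPM in females and 1385 to 1655 CPM in males. None of these markers was called by edgeR (smallest adjusted p = 0.193), and their part in the Itga6 values was not tested. Gp1bb, a platelet receptor chain of that list, had 22 counts over the 10 libraries and was not tested.

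Itgb1, the beta chain shared by VLA-4 and VLA-6, was the steadiest integrin chain (chromosome 8, 128685654 to 128733200, plus strand). It was at 292, 307, 301, 289 and 277 CPM in females and at 289, 232, 279.7, 309 and 296 CPM in males. All mice other than male replicate 2 lay between 277 and 309 CPM. Females over males it was 0.06 on the log2 scale (SE 0.09, 95% interval -0.13 to 0.25, edgeR adjusted p = 0.730), so a change beyond 1.19-fold higher or 0.914-fold lay outside the interval. With the length offset male replicate 2 was at 245 CPM.

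Within a library, Itga4 and Itgb1 counts kept a narrower ratio in females than in males. The log2 ratio of Itga4 to Itgb1 counts was -0.34 ± 0.15 in females, against -0.64 ± 0.50 in males (SD, n = 5 each), with all females inside the male range of -1.29 to -0.13. The log2 ratio of Itga6 to Itgb1 was -1.59 ± 0.34 in females and -2.03 ± 0.15 in males. Its female minus male difference was 0.44, and female replicate 1, at -2.09, lay among the males. The log2 ratio of Itga4 to Itga6 was 1.25 ± 0.45 in females and 1.39 ± 0.52 in males, a difference smaller than either spread. Without male replicates 1 and 2 the female minus male difference was -0.03 for Itga4 to Itgb1 and 0.46 for Itga6 to Itgb1. For Itgal to Itgb2 it was 0.45, and -0.07 without them. These ratios do not depend on library scaling but do depend on a length trend, since the paired genes differ in exon length. With the length offset, which was applied to the ratios after seeing the data, the Itga4 to Itgb1 ratio was -0.43 ± 0.12 in females, against -0.56 ± 0.28 in males, a difference of 0.13. The difference was then 0.32 for Itga6 to Itgb1 and 0.32 for Itgal to Itgb2. None of the ratios was tested.

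**Figure D4:**
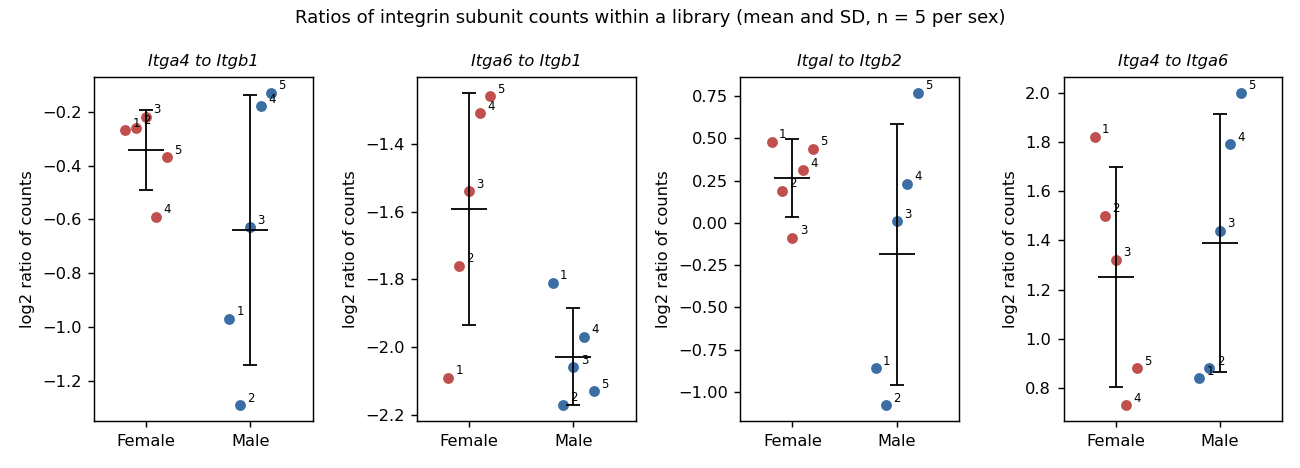
Log2 ratio of the counts of integrin subunits within each library, females left and males right, numbered by replicate, with the mean and SD of 5 mice in black. The sexes overlap in all 4 ratios, and the males spread from -1.08 to 0.77 for Itgal to Itgb2, against -0.09 to 0.48 in the females.

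Over the 10 mice, Itga4 followed Itgb1, its partner in VLA-4, with Pearson r = 0.89 (permutation p = 0.00298, adjusted p = 0.00894 over 3 pairs) and Spearman rho = 0.84 (permutation p = 0.00352, adjusted p = 0.0106). This relation rested in part on the males that stood apart, which were also the 2 mice farthest from the median of Itga4. Without male replicates 1 and 2, r was 0.81 (n = 8, exact permutation p = 0.0172, adjusted p = 0.0515 over the 3 pairs), and without male replicate 2 alone it was 0.66 (exact permutation adjusted p = 0.0837). Within each sex 5 mice are too few for a correlation, and r over the deviations from the sex means was 0.89. Other genes were closer to each, such as Polr2a to Itga4 (r = 0.996) and Coa5 to Itgb1 (r = 0.988). The r of 0.89 therefore does not single out the VLA-4 partners. It was not computed with the length offset. Itga6 and Itgb1 gave r = 0.51 and rho = 0.18 (permutation p = 0.126 and 0.632, adjusted p = 0.189 and 0.632), and r was -0.04 without the 2 mice farthest from the median of Itga6. Itgal and Itgb2 gave r = 0.33 and rho = 0.38 (permutation p = 0.302 and 0.279, adjusted p = 0.302 and 0.418), and r was 0.59 without the 2 farthest mice. That r was 0.04 without male replicate 1 and 0.63 without male replicate 2. All 3 tests were two-sided.

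The LFA-1 chains differed in how they spread. Itgal, the alpha chain found on leukocytes (chromosome 7, 127296260 to 127335138, plus strand), was at 62.2, 59.2, 70.0, 87.6 and 99.1 CPM in females and at 100.1, 35.8, 67.4, 87.7 and 86.5 CPM in males. Females lay inside the male range, and male replicate 2 was lowest. On the log2 scale females over males were at 0.00 (SE 0.24, 95% interval -0.52 to 0.53, edgeR adjusted p = 0.998). Itgb2, the beta chain that LFA-1 shares with the neutrophil and monocyte integrin of Itgam (chromosome 10, 77530252 to 77565708, plus strand), was at 44.7, 51.8, 74.7, 70.9 and 73.2 CPM in females and at 181, 75.9, 66.8, 75.0 and 50.6 CPM in males. Male replicate 1 stood far above the other 9 mice, among which the sexes overlapped. Its log2 fold change was -0.51 (SE 0.30, 95% interval -1.17 to 0.15, edgeR adjusted p = 0.507), but -0.09 without male replicate 1 (adjusted p = 0.823) and -0.03 without male replicates 1 and 2.

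Male replicate 1 also had the most mature neutrophil transcripts. All 14 neutrophil markers had negative log2 fold changes with a median of -2.39, none was called, and their summed level was 9787 CPM in male replicate 1, 3005 CPM in male replicate 2 and 252 to 1523 CPM in the other males, against 312 to 1095 CPM in females. Itgam was at 3.75 ± 1.09 CPM in females, against 15.0 ± 16.0 CPM in males (SD, n = 5 each). Neutrophil markers were not alone in this, since male replicate 1 was also the highest mouse for the summed monocyte and macrophage markers. These were at 907 CPM there, against 354 to 467 CPM in the other males and 288 to 527 CPM in females. It was highest for the erythroid (50329 CPM), B lineage (990.4 CPM) and T and natural killer cell (81.1 CPM) sums as well. The part of any of these markers in the Itgb2 values was not tested beyond leaving out the library. Tested genes whose log2 CPM over the 10 libraries was most like that of Itgb2 were Padi4 (r = 0.987), a neutrophil enzyme that is itself in the neutrophil list, Tgfbi (r = 0.981) and Glipr2 (r = 0.978).

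**Figure D5:**
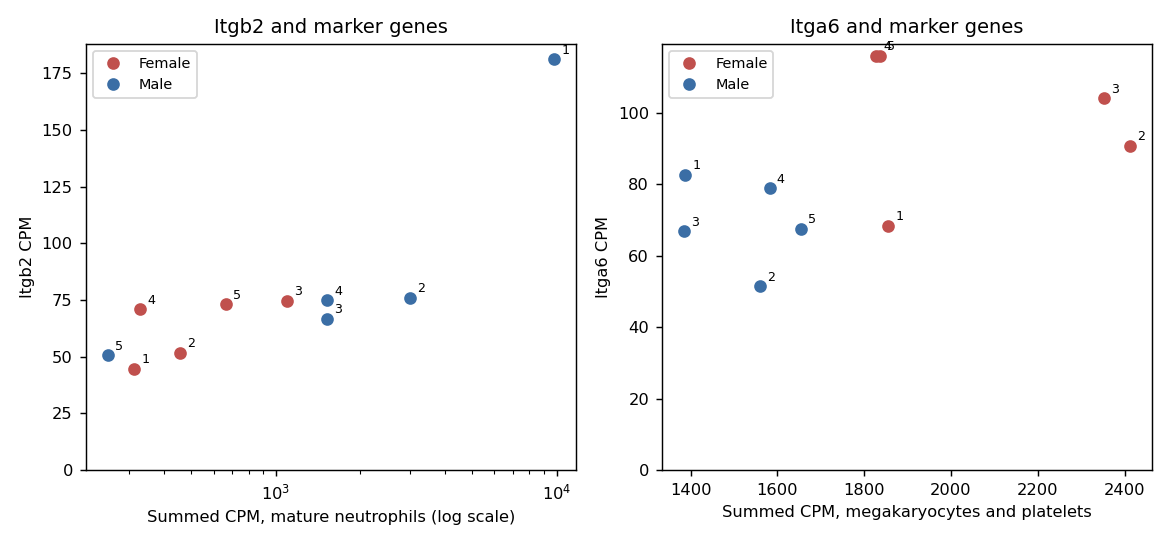
Itgb2 CPM against the summed CPM of mature neutrophil markers (left, log scale on the horizontal axis) and Itga6 CPM against the summed CPM of megakaryocyte and platelet markers (right), each point 1 mouse numbered by replicate. Male replicate 1 is at 181 CPM of Itgb2 and 9787 CPM of neutrophil markers. On the right every female lies to the right of every male. Within neither sex does Itga6 rise steadily with the marker sum, and the relation was not tested.

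Selplg and Cd44 encode the receptors for rolling and for matrix. Selplg (chromosome 5, 113818536 to 113832644, minus strand) was at 146, 130.5, 164, 174 and 196 CPM in females and at 251, 172, 182, 186 and 206 CPM in males. Female replicates 1, 2 and 3 lay below every male. Its log2 fold change was -0.30 (SE 0.13, 95% interval -0.58 to -0.01, unadjusted p = 0.0412 and edgeR adjusted p = 0.506), and it kept its sign over all 19 alternatives, between -0.38 and -0.21. Male replicate 1 was again the highest mouse, and without it the value was -0.21 (adjusted p = 0.628). Cd44 (chromosome 2, 102811141 to 102901665, minus strand) was at 139, 149.8, 153, 154 and 139.8 CPM in females and at 179, 156, 138, 164 and 154 CPM in males. Its highest mouse exceeded its lowest 1.3-fold, the narrowest range of the 9 genes, and the log2 fold change was -0.10 (SE 0.08, 95% interval -0.29 to 0.08, edgeR adjusted p = 0.560). With the length offset the Cd44 value was -0.21 (adjusted p = 0.511). Counts per gene do not separate splice forms, of which the annotation lists 9 transcripts for Cd44 and 8 for Itga6.

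The genes whose pattern over the 10 libraries was most like that of each receptor gene were looked up among 8392 genes with a mean of at least 10 CPM, and r is given as a description of libraries that share depth and composition. For Cxcr4 they were Tmbim6 (r = 0.936), Txnip (0.925) and Arl6ip1 (0.924). For S1pr1 they were Tspan3 (0.937), Spns3 (0.925) and Abcg1 (0.919). The closest to Itga4 were Polr2a, the largest RNA polymerase II subunit, and Cep192 (r = 0.996 and 0.995), and to Itgb1 Coa5 (0.988) and Usp25 (0.984). For Itga6 they were Tubb1, the platelet tubulin (0.961), Adam9 (0.950) and Rasa3 (0.946), and for Itgal Rassf4 (0.977), Phactr2 (0.974) and Arhgap30 (0.972). The closest to Selplg were Satb1 (0.963), Alox5 (0.962) and Gm2a (0.948), and to Cd44 March7 (0.961), Gpcpd1 (0.927) and Rsad2 (0.917). None of the 9 receptor genes was among the 3 closest genes of another. After removing the sex means, Tspan3, Polr2a, Cep192, Adam9, Rassf4, Arhgap30, Coa5, Padi4, Tgfbi, Alox5, March7 and Gpcpd1 were still among the 3 closest, while those of Cxcr4 included Tm9sf2 (0.977) and Tmem50b (0.968).

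The wider homing machinery gave no call either, with 0 called of 152 tested genes in 8 lists by edgeR, where 0.0545% of all genes were called. At an unadjusted p under 0.05 there were 31 of 152, where 9.17% of all genes tested had such a p. DESeq2 called 3 of them, where it called 0.361% of all genes, and limma-voom called 0. Of 14 other integrin subunits 7 had positive and 7 negative values (median log2 0.05, against -0.01 over all genes tested). Those of smallest p were the fibrinogen receptor chains Itga2b (419.6 ± 45.3 CPM in females, against 301 ± 37.0 CPM in males, edgeR adjusted p = 0.333) and Itgb3 (344 ± 64.2 and 215 ± 48.0 CPM, adjusted p = 0.399; SD, n = 5 each), which are also in the megakaryocyte list. Neither gene had a male as high as the lowest female. DESeq2's Wald test called them (adjusted p = 0.0126 and 0.0377).

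Genes that switch integrins on or tie them to actin numbered 32, of which 22 had positive and 10 negative values (median log2 0.13). Parvb, the beta-parvin that links integrin complexes to actin, was at 192 ± 12.2 CPM in females, against 146 ± 7.32 CPM in males (log2 fold change 0.39, SE 0.08, edgeR adjusted p = 0.193), with no overlap of the sexes. DESeq2 called Parvb (adjusted p = 7.33e-05). Focal adhesion kinase, the product of Ptk2, was at 16.9 ± 1.55 CPM in females, against 13.3 ± 1.78 CPM in males (edgeR adjusted p = 0.506).

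Chemokine receptor signalling genes had 10 positive and 18 negative values of 28 tested (median log2 -0.07, against -0.01 over all genes tested). Rgs1, which shortens G protein signals from chemokine receptors, was at 1.94 ± 0.281 CPM in females, against 3.0 ± 0.580 CPM in males (log2 fold change -0.62, SE 0.19, edgeR adjusted p = 0.506). The GTPase gene Rac2 was at 186 ± 16.8 CPM in females, against 248 ± 60.6 CPM in males (log2 fold change -0.41, SE 0.14, adjusted p = 0.506), and at -0.25 without male replicate 1. Among 21 other homing and adhesion receptors 10 were positive and 11 negative (median log2 -0.07), with F11r, a junctional adhesion molecule, at 9.99 ± 0.530 against 7.33 ± 1.17 CPM and the neutrophil chemokine receptor gene Cxcr2 at 8.47 ± 2.21 against 18.1 ± 13.9 CPM in females against males. The log2 fold change of Cxcr2 was -1.10, and -0.50 without male replicate 1.

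Niche ligands gave 6 positive and 7 negative values of 13 tested (median log2 -0.02), led by the laminin chain gene Lamb1 (2.27 ± 0.804 CPM in females, against 1.22 ± 0.605 CPM in males) and Selp, the P-selectin of platelets and endothelium that binds PSGL-1 (19.3 ± 5.58 and 11.9 ± 4.76 CPM). The edgeR adjusted p was 0.506 for both. The log2 fold change of Lamb1 was 0.89, and 1.41 without male replicates 1 and 2, and that of Selp was 0.69, and 0.35 without them. Of 17 genes that build selectin ligands or anchor CD44 and PSGL-1 to the cytoskeleton, 11 were positive and 6 negative (median log2 0.02), with the sulfotransferase gene Tpst2 at 81.8 ± 10.5 and 70.5 ± 7.35 CPM and radixin, Rdx, at 252 ± 10.5 and 221 ± 31.9 CPM in females and males. The sphingosine 1-phosphate list had 9 positive and 6 negative values of 15 (median log2 0.05), with the phosphatase gene Plpp3 at 5.03 ± 2.15 and 2.96 ± 0.813 CPM and the receptor gene S1pr4 at 37.0 ± 5.69 and 46.1 ± 6.66 CPM in females and males. Proteases and their inhibitors had 4 positive and 8 negative values of 12 (median log2 -0.23), with the sheddase gene Adam8 at 3.35 ± 0.783 and 6.48 ± 4.53 CPM and Timp2 at 11.3 ± 2.22 and 16.6 ± 6.17 CPM in females and males. The log2 fold changes of Adam8 and Timp2 were -0.96 and -0.56, and -0.44 and -0.30 without male replicate 1, which had the highest value of both.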

How the data were processed

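RNA from lineage-depleted marrow of 10 mice was sequenced, 1 library per mouse. Tools listed in the submitters' processing notes are STAR, featureCounts and DESeq, and builds GRCm38.p6 and mm10; no version is listed. The authors deposited raw read counts per Ensembl gene and a table of normalized signal, which in each library equalled the count divided by 1 size factor (0.852 to 1.13). Symbols, exon lengths and positions come from GENCODE vM21 (GRCm38), in which 25116 of 25178 genes were found by identifier. Promoter sequences come from RefSeq (GRCm38.p6), which held 4 of the 9 receptor genes in the table used.

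Counts were filtered with edgeR's filterByExpr, scaled by TMM and tested with the robust quasi-likelihood test of edgeR 4.0.16 (R 4.3.3), with sex as the only term and p-values adjusted over all 14674 genes. The SE is the size of the log2 fold change divided by the square root of F. DESeq2 1.42.0 and limma 3.58.1 were alternatives, and the length offset is a loess trend of each library's deviations on exon length. The edgeR procedure was tried on simulated counts with a single dispersion and no outlying library or length trend. It recovered 99% of 100 genes changed by 1 log2 unit and 100% of 100 changed by 2, and called 16 unchanged genes. Smaller changes, such as those of the receptor genes, were not simulated. CPM use TMM-scaled totals, and log2 CPM a prior count of 2. Correlations were tested with 100000 permutations, or exactly below 10 mice. All replicate pairs exceeded sampling noise, with a lowest chi-square of 8.31 per degree of freedom.

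The receptor genes, the lists and the alternatives were chosen with earlier results of these data known. Named are all 9 receptor genes, the 2 genes of smallest p per list with a mean of at least 1 CPM, and up to 3 genes of the closest pattern per receptor gene. Some genes that the rule takes are left out of the text.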

Additional observations from a re-analysis of the deposited data

Results flagged for a closer look

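In 5 genes a single mouse lay apart from the other 4 of its sex by a gap test (Dixon, 95% level), which flags about 1 in 20 groups by chance, and 58 groups were examined. Itgb2 was at 181 CPM in male replicate 1, against 50.6 to 75.9 CPM in the other males. Cxcr2 was at 43.0 CPM in the same mouse, against 11.2 to 12.7 CPM. Rac2 was at 356 CPM there, against 216 to 229 CPM, and Timp2 at 27.6 CPM, against 13.6 to 14.6 CPM. Adam8 was at 14.3 CPM in male replicate 1, against 3.28 to 6.25 CPM in the other males, and at 1.98 CPM in female replicate 2, against 3.40 to 3.89 CPM in the other females. Male replicate 1 also had the highest summed level of mature neutrophil markers, 9787 CPM, and of monocyte and macrophage markers, 907 CPM.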

How the results depend on the processing

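Over 19 alternatives, 0 of 171 fits of the 9 receptor genes was called, and 159 kept the direction. The sign was reversed in 12 fits, all of genes with a log2 fold change within 0.27 of 0. Without male replicates 1 and 2 together the values were 0.01 for S1pr1, -0.05 for Itga4, -0.09 for Itgal and -0.01 for Itgb1. Itgal was at -0.02 with upper quartile scaling, -0.06 with the length offset and -0.00 with a filter of 1 CPM in 5 libraries, and between -0.17 and 0.12 with 1 library left out, where Itgb1 lay between -0.00 and 0.10. The count of genes called over the whole table was 8, against 53 with DESeq2, 5 with the replicate block and 6 to 10 with 1 library left out. The replicate numbers are not said to pair the mice. Same-numbered deviations were not alike (r between -0.348 and -0.0356), which cannot exclude a pairing. With the replicate block 0 receptor genes were called. The number of receptor genes at an unadjusted p under 0.05, which was 3, lay between 1 and 3 over all alternatives. Among all genes tested it ran from 776 of 14674 with the replicate block to 2284 of 14906 without male replicate 5. The number whose sexes did not overlap was 1, Cxcr4, with DESeq2 size factors, with upper quartile scaling and without male replicates 1 and 2. It was 0 to 1 with 1 library left out. The gene was then Itga6 without female replicate 1, Cxcr4 without male replicate 2 or Cd44 without male replicate 3. The share of all genes separated in these settings is not given here, and fewer mice make such a separation easier. For Itga4 with Itgb1 r was between 0.66 and 0.96 with 1 library left out and 0.81 without both males, for Itga6 with Itgb1 between -0.11 and 0.66 and -0.12, and for Itgal with Itgb2 between 0.04 and 0.63 and 0.54. The cause of these shifts was not tested. S1pr1, with 55 to 146 counts per library, is the gene whose precision depth limits most.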

Other observations

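Several ligands of these receptors and related genes were named after their values were seen. Cxcl12, the CXCR4 ligand made by marrow stroma, was at 66.6 ± 37.9 CPM in females, against 52.4 ± 37.6 CPM in males (SD, n = 5 each, edgeR adjusted p = 0.695). Its range was 43.8 to 134 CPM in females and 23.0 to 114 CPM in males. The 10 stromal markers, Cxcl12 among them, had sums from 328 to 2443 CPM in females and from 366 to 2756 CPM in males. By mean, Col1a1 (611 CPM over females, 527 over males) and Col1a2 (439.5 and 380.0) were the largest members. Cxcl12 did not follow this sum. Male replicate 5, with the highest sum, had the lowest Cxcl12 value, 23.0 CPM. Female replicate 4, with the lowest sum, had the highest Cxcl12 value, 134 CPM. Kitl, a member with far lower values than the collagen genes, ranked these mice as Cxcl12 did. It was highest in female replicate 4 (5.27 CPM), then male replicate 1 (3.44 CPM, Cxcl12 at 114 CPM), and lowest in male replicate 5 (0.610 CPM). The remaining members were not set against Cxcl12 mouse by mouse, so the sum does not show whether Cxcl12 followed stromal content. Vcam1, the VLA-4 ligand of stroma and macrophages, was at 12.2 ± 5.59 CPM in females, against 13.2 ± 13.1 CPM in males, and fibronectin, Fn1, at 20.7 ± 4.98 and 33.3 ± 23.2 CPM in females and males (adjusted p = 0.920 and 0.506). The ICAM ligand genes of LFA-1 were at 5.12 ± 1.21 and 6.05 ± 2.31 CPM for Icam1 and at 22.9 ± 3.91 and 26.6 ± 4.07 CPM for Icam2 in females and males (adjusted p = 0.664 and 0.517). The transcript of Cd47, the signal that protects cells from being engulfed, was at 334 ± 18.2 CPM in females, against 419 ± 114 CPM in males (log2 fold change -0.33, SE 0.15, adjusted p = 0.506). Male replicates 1 and 2 were at 414 and 618 CPM. The other males, at 349 to 361 CPM, lay within the female range of 317 to 364 CPM.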
